A study of Mus musculus with 12 samples.

Results

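The mitosis and kinetochore genes described here are a list of 56 named genes that act while a cell divides, out of 34796 gene names on the array. They were taken as the non-control probes that the scanner files name for one of these genes, which gave 77 probes, with 1 probe for 40 genes, 2 for 11 genes and 3 for 5 genes. The array measured RNA of the aorta above the right renal artery in male C57BL/6J mice aged 11 to 14 weeks, with 1 array for each of 12 mice, in a mouse model of aortic dissection (AD) at day 3 of treatment. All 4 groups of 3 mice received the vehicle dimethylsulfoxide (DMSO). The DMSO group received nothing else, and the rapamycin group received rapamycin, an inhibitor of the kinase mTOR, at 2 mg/kg/day. The BA+DMSO group was challenged with β-aminopropionitrile (BAPN), which blocks the crosslinking of collagen and elastin, at 150 mg/kg/day and with angiotensin II (AngII) at 1 µg/kg/min. The BA+rapamycin group received this challenge together with rapamycin. The study gave the challenge by implanted osmotic minipumps and describes no sham implant, so the implants and the drugs cannot be told apart. Sample titles in the DMSO group start with Pre, and the series record describes this group as vehicle alone, sampled on the same day as the others. The array reads whole aortic tissue, so fewer dividing cells and less RNA of these genes per cell cannot be told apart.

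A cell enters mitosis when CDK1, bound to a B-type cyclin, is switched on. Chromosomes are then condensed, their centromeres build kinetochores that grip the spindle, and the spindle checkpoint holds the cell until every chromosome is attached. The anaphase-promoting complex then releases the sister chromatids, and the central spindle and an actomyosin ring split the cell. Most smooth muscle cells of a healthy adult aorta are not dividing, and many genes of this machinery are transcribed mainly in the late part of the cell cycle, which makes their RNA a common readout of dividing cells in a tissue.

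Every value below is a log2 difference from the 75th percentile of its own array, and a fold change compares group means of these values. A gene stands by the tested probe with its highest mean signal. Of the 56 genes, 43 had a tested probe, which is one that the scanner flagged as well above background throughout at least 1 group of 3 arrays. For 26 genes the probe was above background on each of the 12 arrays. Of the other 17 tested genes, 6 passed through an unchallenged group, namely Ccna2, Ndc80, Bub1b, Espl1, Cdca5 and Kif20a, and Bub1b passed through unchallenged groups only. The remaining 11 tested genes (Cdk1, Ccnb1, Melk, Pbk, Cdca3, Top2a, Kif11, Nusap1, Ckap2, Iqgap3 and Shcbp1) passed only through challenged groups. These had to differ between groups to be tested, and the count that is read against the background is therefore the one over the 26 genes. Not tested were 9 genes seen on some arrays (Cdc25c, Nek2, Nuf2, Spc24, Bub1, Kif2c, Kif4, Kif23 and Ect2) and 4 genes seen on no array (Aurkb, Cenpf, Ttk and Ncapg).

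The 75th percentile intensity was 221 to 337 on the 6 unchallenged arrays and 74.6 to 246 on the 6 challenged arrays. The 3 DMSO arrays and rapamycin replicate 1 lay on one slide and the other 8 arrays on the second slide, so DMSO and BA+DMSO shared no slide and the rapamycin group alone lay on both. Of the 12 sample titles 10 hold a date, with 5 dates in all, and the labels do not say what it marks. DMSO replicates 2 and 3 share one with rapamycin replicates 2 and 3, BA+DMSO replicate 1 with BA+rapamycin replicate 1, and DMSO replicate 1 with BA+rapamycin replicate 3, while BA+DMSO replicates 2 and 3 hold none. All 8 smooth muscle markers were above background on every array. Among the BA+DMSO arrays, replicate 2 stood apart for the mitosis genes, as described with the results, and the main counts are given with and without it.

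Many promoters of late cell cycle genes hold a cell cycle genes homology region (CHR), which binds the DREAM and MuvB complexes, and CCAAT boxes, which bind NF-Y. RefSeq promoters on GRCm38.p6, each of 300 bases from 250 before to 50 after a start site, were at hand for 46 of the 56 genes, with 50 promoters in all. No promoter was matched for Ccna2, Cdc25c, Pbk, Aurkb, Incenp, Spc24, Smc4, Tpx2, Kif20a and Shcbp1. The CHR was searched as TTTGAA or TTCGAA and the CCAAT box as CCAAT, both on either strand. A CHR was found in 37 of the 50 promoters, or 74%, against 19.2% of all 32851 promoters. A CCAAT box was found in 76% of the members' promoters against 37.4% of all, and both motifs in 64% against 7.52%. The CHR lay within 50 bases of the start site in 66% against 5.31%, and 2 or more CCAAT boxes were found in 46% against 11.7%. A CHR shared bases with a CCAAT box in 1 member promoter. The windows below end at the base before the start site and are shown as examples of these motifs in genes of different roles, beside Pttg1, whose promoter holds neither. Of the genes with a promoter, 31 rose in the challenge described below and 26 of them held either motif, the exceptions being Birc5, Melk, Ncaph, Nusap1 and Mad2l1. The 4 that did not pass the test all held one, and Pttg1, the 1 that fell, held neither. No relation between motif and response was tested. Capitals mark a CHR (TTTGAA, or TTCAAA where it lies on the other strand) or a CCAAT box (CCAAT, or ATTGG on the other strand). The windows are chr10:69352913-69353062 (minus strand) for Cdk1, chr4:118437344-118437433 (minus) for Cdc20, chr2:164769779-164769928 (plus) for Ube2c, chr7:135716380-135716579 (minus) for Mki67, chr7:80294386-80294475 (plus, the second of its start sites) for Prc1, chr7:127042421-127042510 (minus) for Kif22 and chr11:43425982-43426071 (minus) for Pttg1. A match is a run of letters and not a measured binding site.
Cdk1: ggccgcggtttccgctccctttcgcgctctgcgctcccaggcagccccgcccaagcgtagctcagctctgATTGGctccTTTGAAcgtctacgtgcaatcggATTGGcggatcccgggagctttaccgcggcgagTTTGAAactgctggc
Cdc20: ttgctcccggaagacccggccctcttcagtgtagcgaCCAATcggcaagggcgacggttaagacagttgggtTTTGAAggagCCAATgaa
Ube2c: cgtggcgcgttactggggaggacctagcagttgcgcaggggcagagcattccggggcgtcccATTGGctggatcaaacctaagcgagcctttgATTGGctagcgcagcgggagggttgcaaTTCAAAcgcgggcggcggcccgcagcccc
Mki67: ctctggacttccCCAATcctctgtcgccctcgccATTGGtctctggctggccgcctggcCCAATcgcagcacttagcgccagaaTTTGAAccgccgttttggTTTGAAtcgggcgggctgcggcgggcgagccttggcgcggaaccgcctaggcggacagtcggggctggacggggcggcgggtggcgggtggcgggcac
Prc1: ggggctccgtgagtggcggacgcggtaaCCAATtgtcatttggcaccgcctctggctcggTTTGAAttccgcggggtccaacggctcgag
Kif22: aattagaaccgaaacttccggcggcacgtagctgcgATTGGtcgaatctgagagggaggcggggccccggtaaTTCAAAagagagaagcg
Pttg1: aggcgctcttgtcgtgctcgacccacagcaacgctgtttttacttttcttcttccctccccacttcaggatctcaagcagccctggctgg

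**Figure D1:**
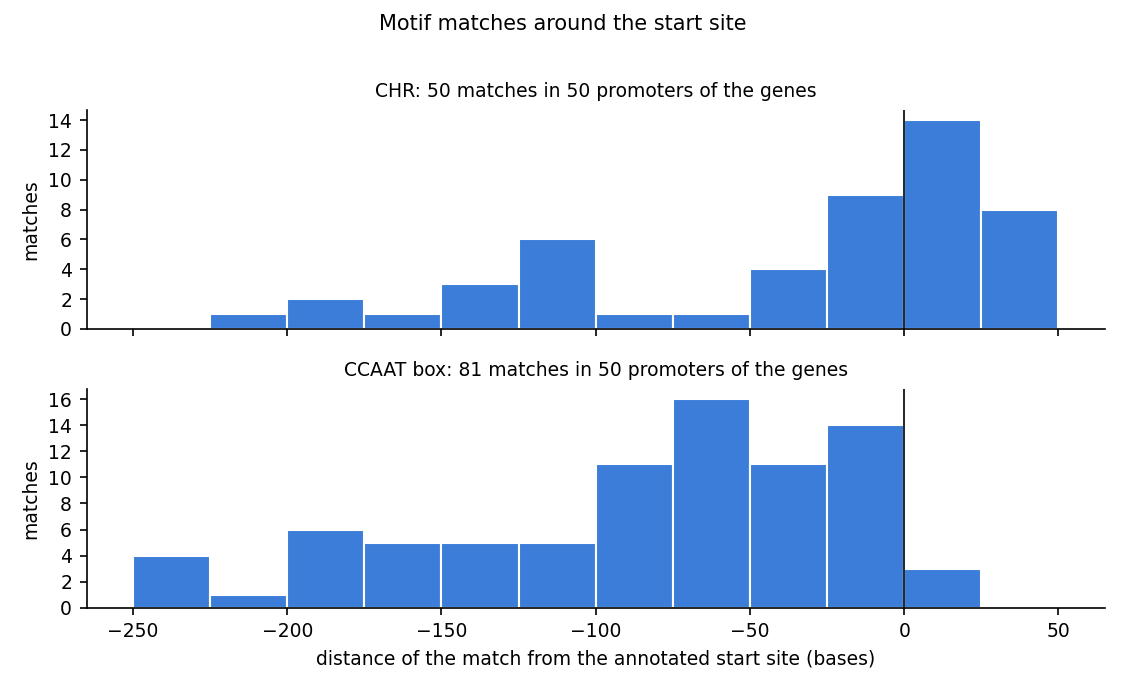
The 2 panels count, in steps of 25 bases, the distance of each match from the annotated start site (0, in bases, negative before it) over the 50 promoters of the genes, with 50 matches of the CHR above and 81 of the CCAAT box below. The CHR matches gather close to the start site, and most CCAAT boxes lie before it.

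The first comparison, BA+DMSO against DMSO, asks how these genes differed at day 3 of the challenge without rapamycin. Most tested genes of the machinery were higher after the challenge, from the kinase that opens mitosis to the proteins that split the cell. Of the 26 genes on all 12 arrays, 21 rose and 1, Pttg1, fell, where a call is a limma adjusted p under 0.05, and of all probes on all 12 arrays 10.7% rose and 10.5% fell. Over all 43 tested genes 37 rose and 1 fell, beside 9.65% of all tested probes that rose. The median log2 difference of the 26 genes was 3.33 and that of the 43 genes was 3.77, or 3.59 with the 7 genes that have only a bound set at it, beside -0.045 over all tested probes. In 21 of the 26 genes every BA+DMSO array lay above every DMSO array, which held for 15.9% of all probes on all 12 arrays. Over the 43 genes, of which 11 passed the filter only through challenged groups, the count was 37, beside 14.4% of all tested probes. Of the 26 genes, those that did not pass the test were Cdc25b, Smc2, Smc4 and Anln, and of the other tested genes Bub1b alone did not pass.

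**Figure D2:**
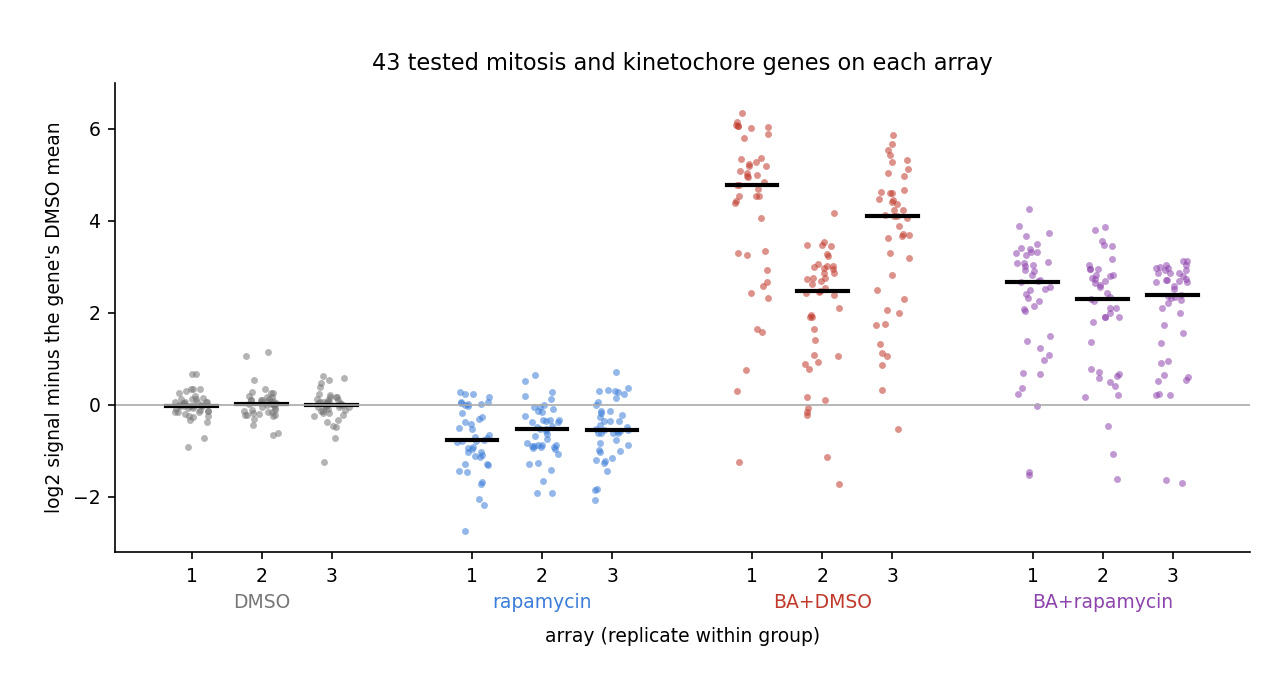
Each point is 1 of the 43 tested genes on 1 array, as its log2 signal minus that gene's mean over the 3 DMSO arrays, and the black bar is the median of the 43 genes. The medians are near 0 in DMSO, -0.76 to -0.53 in rapamycin, 2.30 to 2.67 in BA+rapamycin and 4.78, 2.48 and 4.10 in BA+DMSO.

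In the rapamycin group the median of the 43 genes, as a difference from the DMSO mean, was -0.76 on the array of the first slide and -0.53 and -0.55 on those of the second. With the slide as a fixed block the challenge rests on the rapamycin arrays that link both slides, and then 0 of the 43 genes were called while their median stayed at 3.41 (limma; at an unadjusted p under 0.05, 35 were higher and 1 lower, beside 5.55% and 5.34% of all probes, and 15 of all 27801 probes were called in that fit). Markers of cells that enter an injured aorta moved with the challenge too. Of 11 macrophage markers, all on all 12 arrays, 10 rose, and their summed signal, in multiples of the array's 75th percentile, was 115 to 145 in DMSO, 133 to 155 in rapamycin, between 230 and 506 in BA+DMSO, and between 400.5 and 525 in BA+rapamycin. Of the tested markers, 4 of 5 erythroid, 3 of 6 lymphocyte and 2 of 6 neutrophil markers rose as well, beside 9.65% of all tested probes. So did 2 of 6 fibroblast, 2 of 6 endothelial and 1 of 5 adipocyte markers, and none of these lists held a marker that fell. The summed fibroblast signal was 592 to 836 in DMSO and 820 to 1457 in BA+DMSO. Cxcr2, Cd8a and Epb4.2 were among the markers not well above background on any array. Of 8 smooth muscle markers 1 fell, and their summed signal was 2858 to 3080 in DMSO and 2460 to 4837 in BA+DMSO. The part of these cells in the result was not tested.

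**Figure D3:**
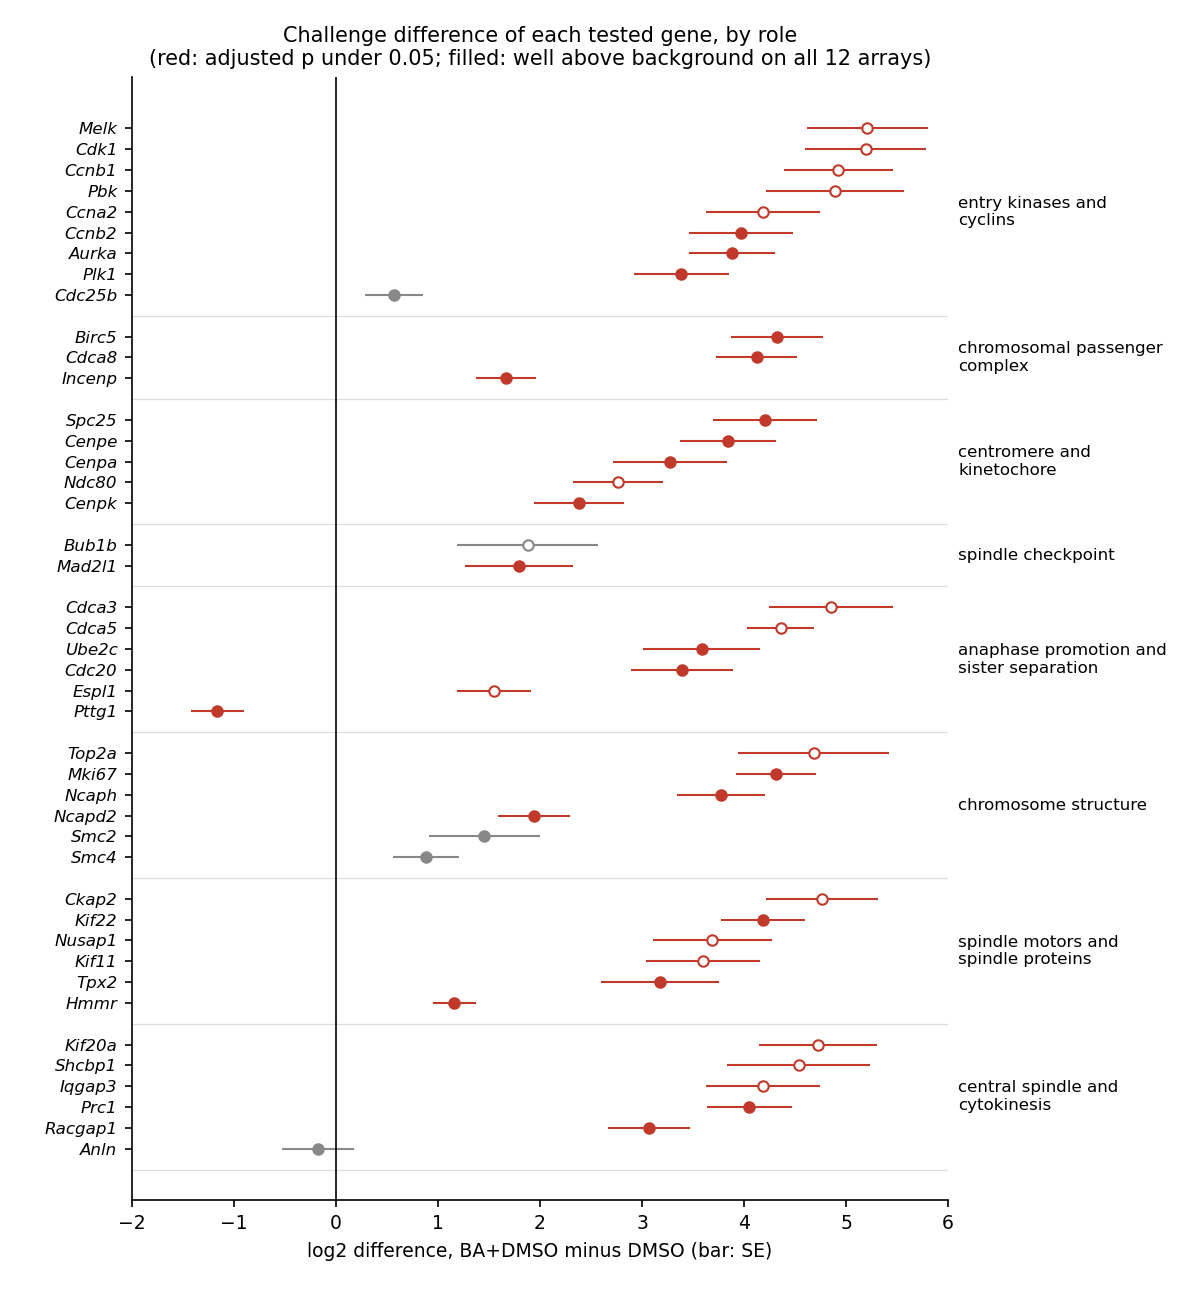
Each point is the log2 difference of 1 tested gene between BA+DMSO and DMSO (3 arrays each) with its SE, grouped by role, in red where the limma adjusted p was under 0.05 and filled where the probe passed the background flag on all 12 arrays. Of the 43 genes 37 rose, Pttg1 fell, and Cdc25b, Bub1b, Smc2, Smc4 and Anln did not pass.

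Among the entry kinases and cyclins, 8 of 9 tested genes rose, with a median fitted log2 difference of 4.19. Of these 9, Cdk1, Ccnb1, Melk and Pbk passed the filter only through challenged groups. Counts and medians by role, here and below, include any such genes and are not read against the 9.65% of all tested probes that rose. Cdk1, the kinase that drives entry into mitosis (probe at chr10:68801072-68801131 on mm9, the build of all probe positions here), measured -5.09, -6.21 and -5.98 in DMSO and -6.13, -6.38 and -6.52 in rapamycin. It measured 0.59, -2.21 and -0.08 in BA+DMSO and -2.27, -1.96 and -2.96 in BA+rapamycin. The probe was not well above background on any of the 6 unchallenged arrays, and every BA+DMSO array lay above every DMSO array. Cdk1 was thus at least 11.3-fold higher in BA+DMSO than in DMSO, and its fitted log2 difference was 5.19 (SE 0.60, limma adjusted p = 0.000511).

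Ccnb2, a B-type cyclin that activates CDK1 (chr9:70255671-70255730), measured -1.56, -1.65 and -1.64 in DMSO and 3.59, 0.87 and 2.62 in BA+DMSO. It measured -2.92, -2.50 and -2.23 in rapamycin and 1.21, 1.21 and 1.06 in BA+rapamycin. The BA+DMSO arrays were 15.7-fold above DMSO in the mean (log2 difference 3.97, SE 0.51, adjusted p = 0.000837), with no overlap. Melk, a kinase of dividing cells (chr4:44377041-44377100), measured -6.10, -4.04 and -5.42 in DMSO and 0.96, -1.02 and 0.12 in BA+DMSO. It measured -5.90, -6.08 and -6.21 in rapamycin and -0.94, -2.43 and -2.15 in BA+rapamycin. No unchallenged array had Melk well above background, and BA+DMSO was at least 17.0-fold higher than DMSO (fitted log2 difference 5.21, SE 0.59, adjusted p = 0.000488). Cdc25b, a phosphatase that removes the inhibitory phosphates from CDK1 (chr2:131023911-131023970), measured 0.96, 1.15 and 0.55 in DMSO and 1.64, 0.99 and 1.74 in BA+DMSO. It measured 0.63, 1.40 and 1.18 in rapamycin and 0.86, 0.43 and 1.11 in BA+rapamycin. Its groups overlapped, and it did not pass in the challenge (log2 difference 0.57, SE 0.29, adjusted p = 0.178). The other genes of this role that rose were Ccna2, the cyclin of late S phase and early mitosis, which was 18.2-fold higher, Ccnb1, the main mitotic cyclin, Plk1, the polo-like kinase, which was 10.5-fold higher, Aurka, a kinase of the spindle poles, which was 14.8-fold higher, and Pbk, which was at least 18.2-fold higher.

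Of the chromosomal passenger complex, which corrects wrong attachments of chromosomes to the spindle, the 3 tested genes rose, with a median of 4.13, and the fourth, Aurkb, was seen on no array. Birc5 (survivin, chr11:117716978-117717037) measured -0.72, -0.45 and -0.66 in DMSO and -1.57, -1.51 and -1.63 in rapamycin. It measured 4.74, 2.37 and 4.02 in BA+DMSO and 2.72, 2.33 and 2.37 in BA+rapamycin. The challenged arrays all lay above the unchallenged ones, and Birc5 rose by 4.33 on the log2 scale (SE 0.45, adjusted p = 0.000334). Its 3 probes gave differences of 3.50 to 5.60. Incenp, the scaffold of the complex (chr19:9946893-9946952), measured 1.35, 1.62 and 1.57 in DMSO and 3.83, 2.45 and 3.26 in BA+DMSO. It measured 1.21, 1.46 and 1.07 in rapamycin and 2.50, 2.23 and 2.16 in BA+rapamycin. Its rise was 3.17-fold (log2 difference 1.67, SE 0.29, adjusted p = 0.00385), with no overlap of BA+DMSO and DMSO. Cdca8 (borealin) rose 17.5-fold.

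The centromere and kinetochore genes held 5 tested genes of 8, and all 5 rose, with a median of 3.27. Spc25, a subunit of the NDC80 complex that binds microtubules (chr2:69031953-69032012), measured -1.08, -0.95 and -1.17 in DMSO and 4.13, 1.68 and 3.60 in BA+DMSO. It measured -2.75, -1.99 and -1.68 in rapamycin and 1.87, 1.53 and 1.45 in BA+rapamycin. Its rise in the challenge was 18.5-fold (log2 difference 4.21, SE 0.51, adjusted p = 0.000674), and the groups did not overlap. Cenpe, a kinetochore motor (chr3:134936387-134936446), measured -1.92, -1.88 and -1.85 in DMSO and 3.07, 0.57 and 2.23 in BA+DMSO. It measured -2.67, -2.56 and -2.41 in rapamycin and 1.23, 1.07 and 0.78 in BA+rapamycin. The challenged arrays lay above all unchallenged ones, and Cenpe rose 14.3-fold in BA+DMSO (log2 difference 3.84, SE 0.47, adjusted p = 0.000697).

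Ndc80, which gives the NDC80 complex its name (chr17:71860793-71861755), was the tested gene whose lowest BA+DMSO array was not replicate 2. It measured -3.51, -3.39 and -2.64 in DMSO and 0.16, 0.05 and -1.45 in BA+DMSO. It measured -3.71, -3.22 and -3.79 in rapamycin and -0.50, 0.67 and -0.14 in BA+rapamycin. Its lowest BA+DMSO array was replicate 3, and BA+DMSO was 6.81-fold above DMSO (log2 difference 2.77, SE 0.44, adjusted p = 0.00237). Cenpa, the histone that marks the centromere, rose 9.67-fold and Cenpk 5.21-fold. Of the untested genes, Nuf2 was 9.93-fold and Spc24 9.31-fold higher in BA+DMSO than in DMSO when set against their bounds. Each was above background on 2 of the 3 BA+DMSO arrays and on no DMSO array, so these are not strict lower bounds.

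Of the 4 spindle checkpoint genes, 2 were tested and 1 rose. Mad2l1, which binds and restrains CDC20 (chr6:66490836-66490895), measured -0.85, -1.11 and -1.0 in DMSO and 1.94, -0.81 and 1.32 in BA+DMSO. It measured -0.97, -1.07 and -0.62 in rapamycin and -0.30, -0.57 and -0.44 in BA+rapamycin. Its BA+DMSO replicate 2 lay just above the DMSO arrays, the rise was 3.48-fold (log2 difference 1.80, SE 0.53, adjusted p = 0.0355), and this call was lost under 15 of 27 alternative settings, with an adjusted p of up to 0.578. Bub1b, the checkpoint protein BUBR1 (chr2:118466830-118466889), measured -3.03, -2.43 and -3.46 in DMSO and 0.33, -3.14 and -0.48 in BA+DMSO. It measured -2.74, -3.50 and -3.10 in rapamycin and -1.74, -2.34 and -2.02 in BA+rapamycin. BA+DMSO replicate 2 lay within the DMSO range, and Bub1b did not pass (log2 difference 1.88, SE 0.69, adjusted p = 0.0768), whereas without that array it did (2.90, adjusted p = 0.000671). The kinase gene Bub1 was not tested, and it was 7.12-fold higher in BA+DMSO when set against its bound. With 2 of the 3 BA+DMSO arrays above background, this is not a strict lower bound.

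**Figure D4:**
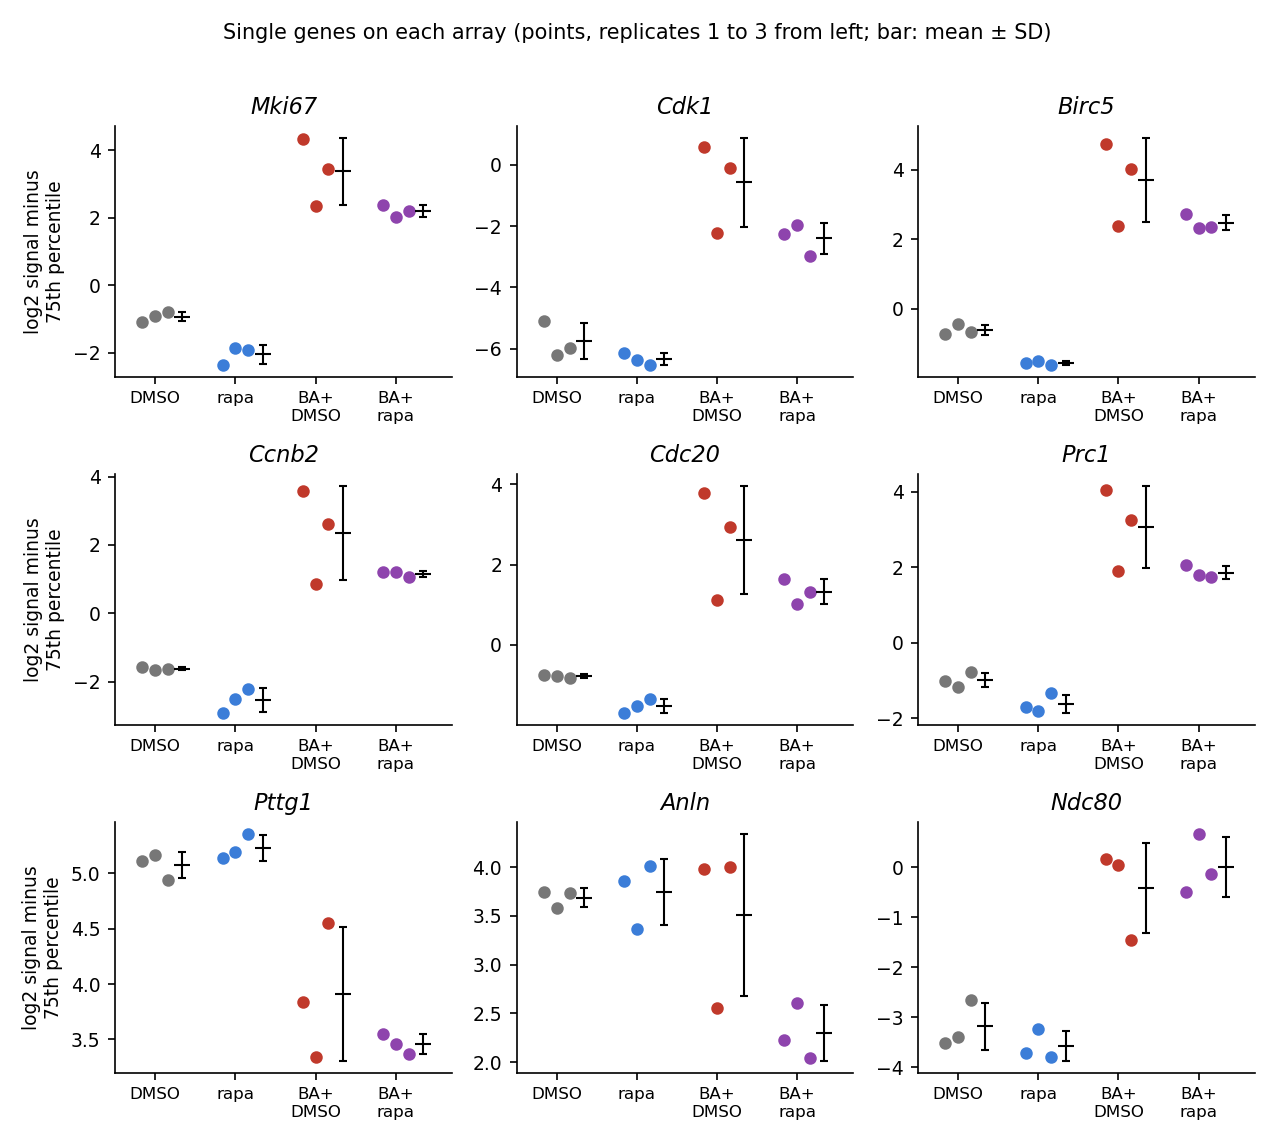
Each panel plots the log2 signal of 1 gene minus the array's 75th percentile on the 3 arrays of each group (points, replicates 1 to 3 from the left), with the group mean and SD beside them (rapa: rapamycin). In Mki67, Cdk1, Birc5, Ccnb2, Cdc20 and Prc1 the challenged arrays lie above the unchallenged ones and BA+DMSO replicate 2 lies near the BA+rapamycin arrays, while Pttg1, Anln and Ndc80 follow other orders.

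Of the 6 genes of anaphase promotion and sister separation, all tested, 5 rose and Pttg1 fell. Cdc20, the activator of the anaphase-promoting complex (chr4:118105534-118105593), measured -0.74, -0.77 and -0.83 in DMSO and 3.77, 1.13 and 2.94 in BA+DMSO. It measured -1.70, -1.53 and -1.33 in rapamycin and 1.63, 1.01 and 1.32 in BA+rapamycin. It rose 10.5-fold in the challenge (log2 difference 3.39, SE 0.50, adjusted p = 0.00165), and all challenged arrays lay above all unchallenged ones. Pttg1 (securin), the inhibitor of separase (chr11:43233801-43233860), measured 5.11, 5.16 and 4.94 in DMSO and 3.84, 3.34 and 4.55 in BA+DMSO. It measured 5.14, 5.19 and 5.36 in rapamycin and 3.55, 3.46 and 3.37 in BA+rapamycin. Every challenged array lay below every unchallenged array, and Pttg1 decreased by 1.16 on the log2 scale (SE 0.26, adjusted p = 0.0111), with differences of -1.32 and -1.16 at its 2 probes. This call was lost under 6 of 27 alternative settings, with an adjusted p of up to 0.38, among them the fit without DMSO replicate 2 (-1.12, adjusted p = 0.0539).

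Espl1 (separase), the protease that cuts the cohesin ring (chr15:102153644-102153882), measured -2.76, -3.42 and -3.15 in DMSO and -0.68, -2.22 and -1.79 in BA+DMSO. It measured -3.15, -2.93 and -2.89 in rapamycin and -1.72, -1.74 and -2.52 in BA+rapamycin. It rose 2.93-fold (log2 difference 1.55, SE 0.37, adjusted p = 0.0152) with no overlap, a call that was lost under 6 of 26 settings, with an adjusted p of up to 0.528, among them the fit without DMSO replicate 2 (1.39, adjusted p = 0.0717). Ube2c, the ubiquitin-conjugating enzyme of the anaphase-promoting complex, measured 2.42, -0.45 and 1.69 in BA+DMSO against -2.01, -2.24 and -2.84 in DMSO. It rose by 3.59 on the log2 scale (SE 0.57, adjusted p = 0.0023) with no overlap. Cdca3 and Cdca5 (sororin, which holds sister chromatids together) rose by 4.85 and 4.36 on the log2 scale, and Cdca5 had the smallest adjusted p of all members, 9.01e-05. Cdca3 was well above background on 2 of the 3 DMSO arrays, so its fitted value rests in part on a signal that was not. The 11 listed subunits of the anaphase-promoting complex itself, all tested, had a median difference of 0.07. Among them Anapc2 rose, by 0.58, and Anapc10 fell by 1.21 on the log2 scale. With 1 of 11 called each way, these counts were near the 9.65% and 10.8% of all tested probes.

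The 7 chromosome structure genes held 6 tested genes, of which 4 rose, with a median of 2.86 over the 6. Mki67, which encodes the proliferation marker Ki-67 that coats mitotic chromosomes (chr7:142881591-142881650), measured -1.08, -0.90 and -0.80 in DMSO and -2.37, -1.85 and -1.91 in rapamycin. It measured 4.35, 2.35 and 3.45 in BA+DMSO and 2.39, 2.02 and 2.20 in BA+rapamycin. It rose 19.8-fold in the challenge (log2 difference 4.31, SE 0.39, adjusted p = 0.000178), and the lowest BA+DMSO array was replicate 2, between the BA+rapamycin arrays. Smc4, a core subunit of condensin (chr3:68838437-68838496), measured 1.31, 1.39 and 1.29 in DMSO and 2.91, 1.27 and 2.47 in BA+DMSO. It measured 1.34, 1.33 and 1.49 in rapamycin and 1.70, 1.51 and 1.54 in BA+rapamycin. BA+DMSO replicate 2 lay below the DMSO arrays, and Smc4 did not pass (log2 difference 0.88, SE 0.33, adjusted p = 0.0772), whereas without that array it did (1.36, adjusted p = 0.000444).

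Ncapd2, a regulatory subunit of condensin (chr6:125118012-125118066), measured 0.25, 0.26 and 0.61 in DMSO and 3.05, 1.45 and 2.44 in BA+DMSO. It measured 0.19, 0.24 and -0.19 in rapamycin and 1.86, 1.15 and 1.72 in BA+rapamycin. It rose 3.85-fold (log2 difference 1.94, SE 0.35, adjusted p = 0.00429) with no overlap. Among the other condensin subunits, Ncaph rose 13.7-fold and Smc2, the partner of Smc4, did not pass (log2 difference 1.46, adjusted p = 0.0792), whereas without BA+DMSO replicate 2 it did (2.30, adjusted p = 8.85e-05). Top2a, the topoisomerase that untangles chromosomes, was at least 14.9-fold higher.

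All 6 tested genes of the 8 spindle motors and spindle proteins rose, with a median of 3.64. Hmmr, which binds microtubules and hyaluronan (chr11:40515324-40515383), measured 0.48, 0.35 and 0.41 in DMSO and 2.06, 1.19 and 1.48 in BA+DMSO. It measured 0.41, 0.70 and 0.41 in rapamycin and 1.09, 1.09 and 0.94 in BA+rapamycin. Its rise was 2.23-fold (log2 difference 1.16, SE 0.21, adjusted p = 0.00457) with no overlap. Kif22, a motor that pushes chromosome arms outward (chr7:134171255-134171314), measured -2.31, -2.66 and -2.32 in DMSO and 2.65, 0.57 and 2.04 in BA+DMSO. It measured -3.10, -3.39 and -3.04 in rapamycin and 0.66, 0.30 and 0.27 in BA+rapamycin. All challenged arrays lay above all unchallenged ones, and the rise was 18.2-fold (log2 difference 4.18, SE 0.41, adjusted p = 0.000254). Ckap2, a microtubule-associated protein (chr8:23279384-23279443), measured -5.54, -6.25 and -5.02 in DMSO and 0.28, -2.16 and -0.64 in BA+DMSO. It measured -5.36, -4.96 and -4.90 in rapamycin and -2.22, -3.25 and -3.24 in BA+rapamycin. No unchallenged array had it well above background, and it was at least 9.35-fold higher in BA+DMSO (fitted log2 difference 4.77, SE 0.55, adjusted p = 0.000508). Kif11, the motor that pushes spindle poles apart, was at least 6.18-fold higher, and Tpx2, which activates Aurora A, was 9.05-fold higher. Nusap1 rose 12.9-fold. Untested Kif4 and Kif2c were 3.57-fold and 3.27-fold higher when set against their bounds. Each was above background on 2 of 3 BA+DMSO arrays, so these are not strict lower bounds.

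Of the 8 central spindle and cytokinesis genes, 6 were tested and 5 rose, with a median of 4.12. Prc1, which bundles the microtubules of the central spindle (chr7:87461048-87461107), measured -1.01, -1.16 and -0.78 in DMSO and 4.06, 1.89 and 3.26 in BA+DMSO. It measured -1.71, -1.81 and -1.34 in rapamycin and 2.05, 1.81 and 1.73 in BA+rapamycin. It rose 16.6-fold (log2 difference 4.05, SE 0.42, adjusted p = 0.000331), and no challenged array overlapped the unchallenged ones. Shcbp1, a partner of centralspindlin (chr8:4736001-4736060), measured -4.31, -3.46 and -5.76 in DMSO and 1.29, -1.75 and 0.54 in BA+DMSO. It measured -5.97, -6.17 and -6.35 in rapamycin and -1.84, -2.09 and -1.92 in BA+rapamycin. It was well above background on 1 DMSO array and on no rapamycin array, and its fitted log2 difference in the challenge (4.54, SE 0.70, adjusted p = 0.00202) therefore rests on DMSO signals of which 2 were not above background.

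Anln (anillin), the scaffold of the contractile ring (chr9:22136685-22136744), was the gene of this role that did not pass in the challenge. It measured 3.75, 3.58 and 3.73 in DMSO and 3.98, 2.55 and 4.01 in BA+DMSO. It measured 3.86, 3.36 and 4.01 in rapamycin and 2.23, 2.61 and 2.05 in BA+rapamycin. Its difference in the challenge was -0.18 (SE 0.35, adjusted p = 0.756) with the groups overlapping, and without BA+DMSO replicate 2 it was 0.30. Kif20a and Racgap1, which work at the central spindle, rose by 4.72 and 3.07 on the log2 scale, and Iqgap3 was at least 14-fold higher. Untested Kif23 was 9.06-fold higher when set against its bound, which is not strict because 2 of 3 BA+DMSO arrays were above background.

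A second list of 71 other mitosis genes (further kinetochore, spindle, cohesin and cytokinesis genes, none of them members) held 44 tested genes. Of these 18 rose and 2 fell in the challenge, beside 9.65% and 10.8% of all tested probes, with a median of 0.78. Those with the highest fitted difference were Fam64a (at least 27.4-fold higher), Aspm (at least 14.4-fold), Spag5 (at least 14-fold) and Cenph (at least 10.8-fold), none of them above background on a DMSO array, so that their order is not settled. ASPM and SPAG5 are proteins of the spindle and its poles, and CENPH is a part of the inner kinetochore. The 2 that fell, a smaller share than over all tested probes, were the cohesin subunits Stag2 (-1.21, adjusted p = 0.0118) and Stag1 (-0.74, adjusted p = 0.0255).

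The second comparison, BA+rapamycin against BA+DMSO, asks what rapamycin did under the challenge, and all 6 arrays lay on the same slide. With all arrays in, rapamycin lowered no gene of the list past the test, although all 26 genes on all 12 arrays had a negative difference, where 52.3% of all such probes did. Over the 43 tested genes 42 did, beside 50.7% of all tested probes. The median log2 difference was -1.28 over the 43 genes and -1.22 over the 26, beside -0.0096 over all tested probes. By limma 0 of 43 genes were called, beside 0.209% of all tested probes called lower, and the smallest adjusted p was 0.106. At an unadjusted p under 0.05, 21 of the 26 genes were lower, beside 10.7% of all probes on all 12 arrays. The count over the 43 genes was 34, beside 11% of all tested probes. The role medians ran from -1.09 for the spindle checkpoint to -1.44 for the centromere and kinetochore.

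BA+DMSO replicate 2 decided this comparison. The median over the 43 genes of the difference from the DMSO mean was 4.78, 2.48 and 4.10 on the BA+DMSO arrays 1, 2 and 3 and 2.67, 2.30 and 2.40 on the BA+rapamycin arrays. Replicate 2 was the lowest BA+DMSO array for 42 of the 43 genes, and replicate 1 was the highest for 40. Replicate 1 lay above all BA+rapamycin arrays for 42 genes and replicate 3 for 41, while replicate 2 did so for 6, lay within their range for 24 and below them for 13. Over all tested probes, replicates 1, 2 and 3 lay above all BA+rapamycin arrays for 34.1%, 29.8% and 44.7%. The shares of all tested probes within or below that range, or with a given array lowest or highest, were not counted. Those counts over the members are therefore not read against a background. The SD of the members within BA+DMSO had a median of 1.20, beside 0.50 over all tested probes, while in the other groups it was 0.21 to 0.23, beside 0.16 to 0.22.

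Left out, replicate 2 took with it the lowest values of the group, and the BA+DMSO mean rested on 2 mice. In that fit 41 of the 43 genes and all 26 on all 12 arrays fell under rapamycin, beside 22.5% of all 28239 probes tested, and the median over the 43 genes was -1.99. Mki67 then fell by 1.69 on the log2 scale (adjusted p = 0.0033). Those not called were Ndc80 (0.66, adjusted p = 0.304) and Espl1 (-0.76, adjusted p = 0.111). Without replicate 1 or replicate 3 of BA+DMSO, 0 of 43 genes were called by limma, and 10 and 16 were lower at an unadjusted p under 0.05, beside 10.3% and 5.63% of all probes tested in these fits. Marker lists of other cells also differed between the BA+DMSO arrays, and not all in the same way. The median log2 value of the macrophage markers was 3.84, 1.93 and 3.27 on BA+DMSO arrays 1, 2 and 3 and 2.71 to 2.76 in BA+rapamycin. Their summed signal was 427, 506 and 230 on the same arrays, so replicate 2 was lowest by the median and highest by the sum. The median log2 value of the smooth muscle markers was 6.24, 8.06 and 6.87 on the BA+DMSO arrays and 7.17 to 7.52 in BA+rapamycin. By the same median, replicate 2 was the lowest BA+DMSO array for fibroblast, endothelial, lymphocyte and erythroid markers. It was the highest for adipocyte and striated muscle markers and lay between the others for neutrophil markers. The 75th percentile intensity of BA+DMSO arrays 1, 2 and 3 was 132, 78.1 and 246. Erythroid markers summed to between 333 and 382 on the BA+rapamycin arrays, above the 128 to 257 of BA+DMSO. The part of these in the result was not tested.

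**Figure D5:**
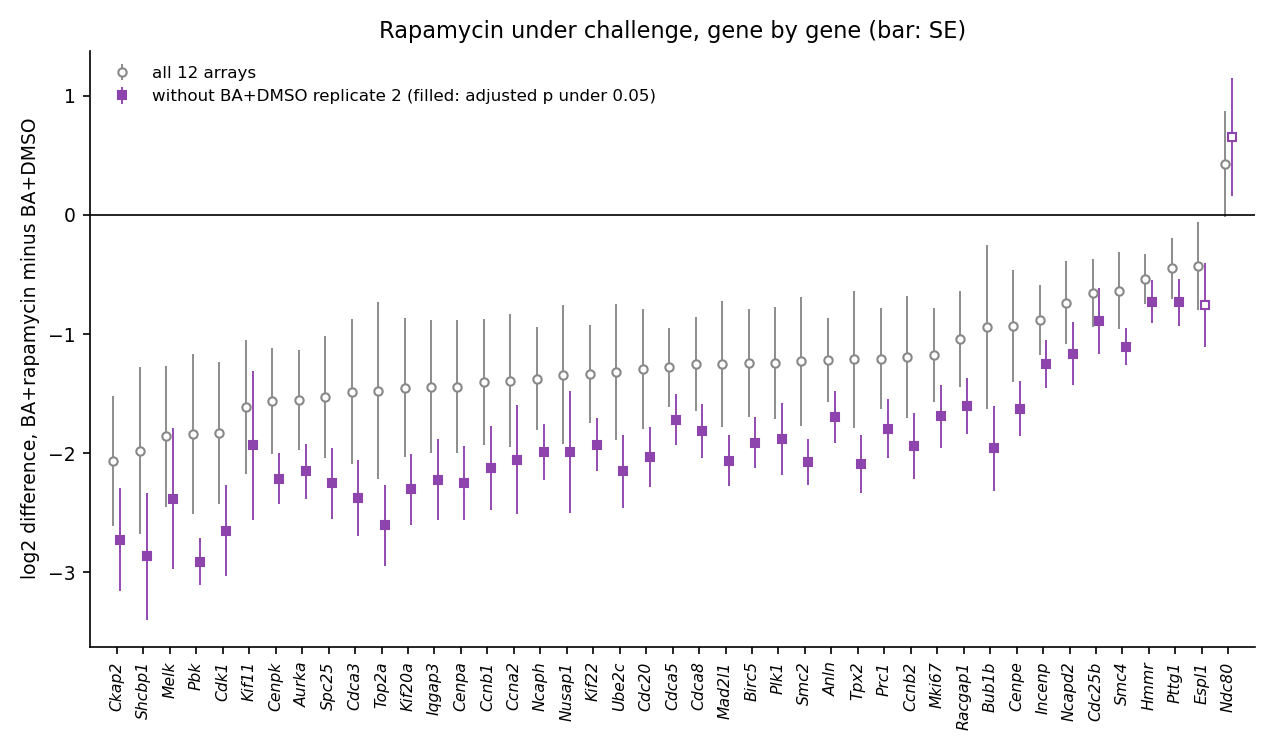
For each of the 43 tested genes, the log2 difference between BA+rapamycin and BA+DMSO with its SE is plotted over all 12 arrays (open circles) and without BA+DMSO replicate 2 (squares, filled where the limma adjusted p was under 0.05). With all arrays 42 genes lie below 0 and 0 were called, and without that array 41 were called lower.

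The BA+DMSO and BA+rapamycin arrays that share a title date, replicate 1 of each, differed by a median of -2.07 over the 43 genes, with all 43 lower, beside 47.6% of all tested probes. With 1 array a group this has no test, and that BA+DMSO array was the highest for 40 genes. With the title date as a random block 3 of the 43 genes fell by limma, beside 1.06% of all tested probes, namely Aurka (-1.75, adjusted p = 0.0429), Cdca5 (-1.33, adjusted p = 0.0429) and Ckap2 (fitted -2.20, adjusted p = 0.0497), with a median of -1.50.

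In every tested gene but Ndc80, replicate 2 was the lowest of the BA+DMSO arrays, while the order of the other arrays varied. In Mki67 the difference with all arrays was -1.18 (SE 0.39, adjusted p = 0.167), in Cdk1 -1.83 (SE 0.60, adjusted p = 0.159) and in Birc5 -1.24 (SE 0.45, adjusted p = 0.192). Without BA+DMSO replicate 2 Cdk1 fell by a fitted 2.65 (adjusted p = 0.00266) and Birc5 by 1.91 (adjusted p = 0.00161). Cdk1 was above background on 2 of the 3 BA+rapamycin arrays, so both of its fitted values rest in part on a signal that was not. Every BA+rapamycin array lay below every BA+DMSO array in 2 of the 26 genes on all 12 arrays, Aurka and Hmmr, and in 7.9% of all such probes, so this count was near the background. Among the other tested genes the same held for Cdca5, Kif11, Ckap2 and Shcbp1, which made 6 of 43 beside 7.57% of all tested probes. Of the 35 genes above background on all 6 challenged arrays, Pbk (-1.84, SE 0.67, adjusted p = 0.195), Cenpk (-1.56, SE 0.44, adjusted p = 0.127) and Aurka (-1.55, SE 0.42, adjusted p = 0.116) had the most negative differences. Ckap2 (fitted -2.06, SE 0.55, adjusted p = 0.11) and Shcbp1 (fitted -1.98, SE 0.70, adjusted p = 0.185) were above background on 1 and 2 of the 3 BA+rapamycin arrays, so these fitted values rest in part on signals that were not, and they take no place in that order. Without BA+DMSO replicate 2 their fitted differences were -2.73 (adjusted p = 0.00342) and -2.86 (adjusted p = 0.00522). Ndc80 was the member with a positive difference (0.43, SE 0.44, adjusted p = 0.547), which turned to -0.093 without BA+DMSO replicate 3. Espl1 (-0.43, adjusted p = 0.467) and Pttg1 (-0.45, adjusted p = 0.316) had small ones. Anln was lower by a mean of 1.22 with replicate 2 of BA+DMSO inside the BA+rapamycin range (limma adjusted p = 0.131), and without that array it fell by 1.70 (adjusted p = 0.00214). Of the 44 other mitosis genes tested, 43 had a negative difference and 0 were called, with a median of -0.64. Without BA+DMSO replicate 2, 64 of them were tested, of which 51 fell and 1 rose, beside 22.5% and 17% of all probes tested in that fit.

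The third comparison, rapamycin against DMSO, asks what rapamycin did in the unchallenged aorta. By limma 0 of 43 genes were called, beside 0% of all tested probes called lower, and the smallest adjusted p was 0.358. Lower at an unadjusted p under 0.05 were 7 genes (Ccna2, Aurka, Cdca8, Cdca5, Mki67, Iqgap3 and Shcbp1), beside 1.86% of all tested probes. Of these 3 were on all 12 arrays, where 1.52% of all probes were lower. A negative difference was found in 20 of the 26 genes on all 12 arrays, beside 51.8% of all such probes, and in 35 of the 43, beside 51% of all tested probes. In 13 of the 26 genes every rapamycin array lay below every DMSO array, beside 10.9% of all such probes, and in 22 of the 43, beside 10.7%. The median log2 difference was -0.67 over the 43 genes and -0.43 over the 26. Among the genes whose arrays did not overlap were Mki67 (-1.12), Birc5 (-0.95) and Cdc20 (-0.74), each with a limma adjusted p near 1. Of the 28 genes above background on all 6 arrays compared, Mki67 had the most negative difference. Cdca5 measured -3.35, -2.95 and -3.04 in DMSO and -5.28, -5.03 and -4.97 in rapamycin, where no array was well above background, so that it was at least 1.95-fold lower. It passed the test in the fit without BA+DMSO replicate 2 (adjusted p = 0.0341) and with the date in the sample titles as a random block (adjusted p = 0.0336). On the 2 DMSO and 2 rapamycin arrays that share a title date, the median over the 43 genes was -0.49 and 0 were called by limma, with 18 lower at an unadjusted p under 0.05, beside 6.01% of all tested probes in that fit. The signal was low in both groups for many of these genes, with 11 of the 43 tested genes passing the filter through challenged groups only. None of the blood cell markers was called by limma in this comparison, and their lists went different ways. All 5 tested erythroid markers were higher in rapamycin, 4 of them at an unadjusted p under 0.05, with a median log2 difference of 1.48 and a summed signal of 21.4 to 92.5 in DMSO and 89.1 to 204 in rapamycin. The difference was positive for 10 of 11 macrophage and 6 of 6 neutrophil markers and negative for 5 of 6 lymphocyte markers (median -0.18). At an unadjusted p under 0.05, 1 macrophage marker was higher, 1 lymphocyte marker lower and 0 neutrophil markers differed. Their part in the values of the mitosis genes was not tested.

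The fourth comparison, BA+rapamycin against rapamycin, asks whether the challenge still moved these genes under the drug. Of the 26 genes on all 12 arrays, 18 rose and 2 fell, beside 20.7% of all such probes that rose. Over the 43 genes 34 rose and 2 fell, beside 18.9% of all tested probes that rose. The median log2 difference was 2.47 over the 26 genes and 3.32 over the 43, or 2.42 with 10 genes set at their bound, beside -0.085 over all tested probes. On the slide that holds all 3 BA+rapamycin and 2 rapamycin arrays, 28 of the 43 genes rose and 1 fell, with a median of 2.91, beside 6.05% and 5.71% of all tested probes in that fit. Mki67 rose by 4.25 (adjusted p = 0.00011), Birc5 by 4.04, Prc1 by 3.48, Ndc80 by 3.59 (adjusted p = 0.000416) and Cdc20 by 2.84 (adjusted p = 0.00233), all on the log2 scale. Cdk1 was 3.21-fold higher when set against its bound, but 2 of the 3 BA+rapamycin arrays were above background, so this is not a strict lower bound. Cell markers moved here too. By limma 7 of 11 macrophage, 3 of 5 erythroid, 3 of 6 lymphocyte, 2 of 6 neutrophil and 2 of 6 fibroblast markers rose, and none of these fell. Of 8 smooth muscle markers 1 rose and 3 fell, and of 6 endothelial markers 1 rose and 2 fell. The part of these cells in the result was not tested.

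Of all tested probes 22.9% fell in this comparison, and of those on all 12 arrays 23.4%. The 2 members that fell were Pttg1, by 1.77 (adjusted p = 0.00093), and Anln, by 1.45 (adjusted p = 0.00953). In both, every BA+rapamycin array lay below every rapamycin array. Not called were Cdc25b, Cenpk, Bub1b, Mad2l1, Smc2, Smc4 and Hmmr, of which Cenpk, Bub1b and Hmmr passed in the fit without BA+DMSO replicate 2 (adjusted p = 0.00114, 0.0168 and 0.0195). Mad2l1 had a difference of 0.45 (adjusted p = 0.506), so the checkpoint genes had 0 calls of 2 here. The comparison shares its rapamycin and BA+rapamycin arrays with others above, and the challenge and rapamycin under challenge share the BA+DMSO arrays.

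Whether the rise with the challenge differed with the drug was tested as an interaction, the fourth comparison minus the first. By limma 0 of 43 genes were called and the smallest adjusted p was 0.641, with a median of -0.61. A negative interaction was found in all 26 genes on all 12 arrays, beside 54% of all such probes, and in 39 of the 43, beside 52.7% of all tested probes, and 2 genes, Anln (-1.27) and Ckap2 (fitted -2.59), had an unadjusted p under 0.05. Ckap2 was above background on 4 of the 12 arrays and on none of the unchallenged ones, so its value rests largely on signals that were not above background. Without BA+DMSO replicate 2, 20 of the 43 genes and 14 of the 26 had a negative interaction past the test, beside 6.76% of all 28239 probes tested in that fit. Over all 12 arrays, a difference between drug and vehicle in the response of these genes was not detectable beyond the spread between arrays.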

How the data were processed

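RNA of 12 aortas was labelled with Cy3 and hybridised to 1-colour Agilent mouse arrays. The deposited scanner files hold a processed signal, a background-subtracted intensity on a linear scale that is not normalized between arrays, with flags for spots well above background, saturated or outlying. The file headers name Feature Extraction 10.7.1.1 and the build mm9 (NCBI37), while the submitters' processing notes name version 9.5.1.1. The deposited matrix holds an intensity that its values show to be quantile normalized (r of 0.9999 or more per array), and was an alternative.

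Outlier spots were removed, spots of a probe averaged on the log2 scale and each array's 75th percentile subtracted. Tested probes had a share of 0.5 or more of their spots flagged well above background throughout a group of 3 arrays, which left 27801 of 55681 probes, and 6 without a value were dropped. One limma 3.58.1 model (R 4.3.3) held the 4 group means, and two-sided p values were adjusted by Benjamini-Hochberg over all tested probes, with calls under 0.05. The fit was tested on simulated data. At least N-fold is the bright group's mean against the higher, on each array of a dim group, of the probe's signal and the lowest signal well above background. Where an array of the bright group was not above background, its signal entered that mean as measured, and the value is then not a strict bound. Saturated spots were kept. Replicates were numbered in accession order, and the number of arrays limits the precision. No annotation of mm9 was used, so exon positions are not given.

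Values per array are given for Mki67, Cdk1, Birc5, the 2 genes of each role with the highest mean, the 2 with the largest and the 2 with the smallest difference in either main comparison, and genes called against the majority. Other genes with values were chosen after these were seen. The members, their roles and all gene lists were chosen with earlier results of these data known. Alternatives covered the scaling, the background correction, the filter, the slide, array weights, brightness, a replicate block, the date in the sample titles, the choice of probe, the study's threshold of p under 0.01 with a fold over 4 or under 0.25, and each array left out.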

Additional observations from a re-analysis of the deposited data

How the results depend on the processing

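The median differences of the 43 genes kept their direction in all settings tried, and the counts of calls moved as follows. In the challenge, where 38 genes were called, array weights gave 17 (the weights did not converge), the filter for probes on all 12 arrays gave 22 of the 26 genes it tested, and the slide as a fixed block gave 0. Of all probes, array weights called 0.349% higher and 0.054% lower, and that filter 12% and 12.3%. The slide block called 0.0468% and 0.00719%. Leaving out 1 array gave 35 to 50 calls and a median of 3.28 to 4.42, and normexp background correction a median of 2.34. For rapamycin under challenge, with 0 calls, the study's threshold gave 1 and leaving out 1 array 0 to 50 calls, with a median of -2.01 to -0.78. For rapamycin alone, with 0 calls and a median of -0.67, array weights gave 16 calls. That fit called 1512 of all 27801 probes, 2.64% of them as lower, where the main fit called 1. The fit of only the groups compared gave 1 member call, beside 0.0108% of all tested probes called lower. Leaving out 1 array gave 0 to 1, with a median of -0.69 to -0.51. The median for rapamycin alone was -0.76 on the arrays of 1 slide and with the slide as a fixed block, -0.80 with the brightness of the array as a covariate, -0.54 with no filter, -0.26 with normexp and -0.43 for probes on all arrays. For the challenge under rapamycin there were 36 calls and a median of 3.32. Probes on all arrays gave 22 calls, beside 22.5% of all probes tested in that fit that rose and 25.5% that fell. Leaving out 1 array gave 33 to 48 calls, with a median of 2.91 to 3.38. That median was 3.51 with the 75th percentile over probes detected on all arrays, 2.91 on 1 slide and with the slide block, 4.38 with the brightness covariate, 2.85 with no filter, 1.70 with normexp, 2.47 for probes on all arrays and 3.06 after quantile normalization. The interaction, with 0 calls, gave 1 by the study's threshold and 0 to 24 with 1 array left out, with a median of -1.31 to -0.085. Every upper count of these ranges came without BA+DMSO replicate 2, whose absence also brought in 9 more tested members (52 in place of 43). Of all probes tested without that array, 14.4% rose and 13.4% fell in the challenge. For rapamycin under challenge 17% rose and 22.5% fell, and for rapamycin alone 0.00354% and 0.0106%. For the challenge under rapamycin the shares were 26% and 30.8%, and for the interaction 3.62% and 6.76%.

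The other mitosis genes, whose alternatives were chosen after seeing the data, had 20 calls in the challenge. They had 5 with array weights, 35 with no filter, 10 with only the groups compared, 13 for probes on all arrays, 10 with the replicate block, 0 with the slide as a fixed block, 11 by the study's threshold and 12 to 48 with 1 array left out. Of all probes, 4.97% were called higher and 2.68% lower with no filter, and 2.71% and 1.77% with only the groups compared. For the study's threshold no share over all probes was counted. The other mitosis genes had 0 to 52 calls under rapamycin in the challenge with 1 array left out. The replicate block used the date and number that 2 pairs of DMSO and rapamycin titles share, whose deviations correlated at 0.17 and -0.35 across probes, so the numbers were not taken to pair the samples. It gave 28 member calls in the challenge and 28 in the challenge under rapamycin, with medians of 3.83 and 3.27, and 0 in the other comparisons. Of all tested probes this block called 1.83% higher and 0.791% lower in the challenge. In the challenge under rapamycin the shares were 5.18% and 4.88%. The title date was added as a block after seeing the data, with undated arrays alone. As a random block it gave 3 member calls for rapamycin under challenge, 1 for rapamycin alone and a median of 2.94 for the challenge under rapamycin. As a fixed block it sets aside the 2 undated BA+DMSO arrays, so the BA+DMSO group rests on replicate 1 alone. That array was the highest of its group for 40 of the 43 genes, and counts of calls are not given for this fit. Its medians were -0.49 for rapamycin alone (also on the arrays of 1 date), 3.07 for the challenge under rapamycin and -1.44 for the interaction. Of the values of single named genes in the challenge, 542 stayed on the same side of the threshold under an alternative, 58 lost their call, 10 gained one and 4 changed sign. In rapamycin under challenge, where none was called, 588 stayed uncalled with the same sign, 22 gained a call and 4 changed sign. In the challenge Hmmr lost its call under 5 of 27 settings, Incenp under 4 and Ncapd2 under 3. The sign changes were these. Cdc25b was at -0.092 in the challenge with the slide as a fixed block. Anln was there at 0.38 with the brightness covariate, 0.044 with the title date as a fixed block and between -0.42 and 0.30 with 1 array left out, the latter without BA+DMSO replicate 2. Under rapamycin in the challenge Ndc80 was at -0.13 with the brightness covariate, -0.66 with the title date as a fixed block and between -0.093 (without BA+DMSO replicate 3) and 0.71 with 1 array left out, and Espl1 was between -0.76 and 0.016 (without BA+DMSO replicate 1). The causes were not tested. The scaling to the 75th percentile over probes detected on all arrays moved the median of all probes in rapamycin under challenge from -0.0096 to 0.13. A probe that was not above background throughout a group has only a bound there.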
